A study of Mus musculus with 32 samples.

Results

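RNA from the lungs of 8 mice was sequenced both after poly(A) selection and without any selection, and the 8 pairs of libraries were compared to see which RNA classes and which protein-coding pathways were gained or lost with selection. The 16 libraries were taken by name out of 32 in the series: wild-type (WT) mice 3, 4, 5 and 6 and Bmal1 knockout (KO) mice 3, 4, 5 and 6, each with 1 PolyA and 1 NoSelect library. All were adult C57b/6 mice or Bmal1 knockouts bred in-house, aged 8 to 18 weeks, labelled female, and given no treatment in the labels, and RNA was taken from snap-frozen lung with TRIzol and an RNeasy column. Bmal1 (Arntl in the table) encodes a core transcription factor of the circadian clock, and the labels do not name the allele or a tissue-restricted Cre. PolyA libraries were made with the TruSeq Stranded mRNA kit from 200 ng of RNA. NoSelect libraries were made with the TruSeq Stranded Total RNA kit with the depletion step left out, from 15 ng of RNA, and 6 preparations were combined per mouse. Selection, kit, input amount and the pooling of preparations therefore change together between the 2 kinds of library and cannot be told apart.

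Poly(A) selection captures RNA through its tail of adenosines with oligo(dT). Most messenger RNAs and many long noncoding RNAs carry such a tail, which is added after cleavage downstream of a signal, usually AATAAA or ATTAAA in the DNA. RNA polymerase III products, spliceosomal and nucleolar RNAs and the replication-dependent histone mRNAs end in other ways, the last in a conserved stem-loop, and mitochondrial mRNAs carry short tails of their own. In a fragmented RNA whose tail alone is bound, only the piece next to the tail is recovered.

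Values are given as CPM, each library's counts set to a common total after leaving out 2 rows, Lars2 and ENSMUST00000182010, and scaling by TMM factors. Those 2 rows held 67.8% to 71.5% of the counts of each NoSelect library and 0.092% to 0.158% of each PolyA library, and they were left out of all totals. The remaining totals ran from 22009219 to 37100630 counts in NoSelect and from 31918715 to 41510367 in PolyA. One NoSelect library, KO mouse 6, carries the tissue label Liver. In it 10 lung markers summed to 33753 CPM, the top of the NoSelect range that began at 24262. The 15 hepatocyte markers summed to 141 CPM, within the NoSelect range of 111 to 333. Albumin stood at 0.519 CPM. Apob, at 17.7 CPM, was near the top of the other 15 libraries (0.745 to 17.8), and Trf (98.3) and Ass1 (17.5) lay within their ranges. The library was kept as lung. KO mouse 6 also differed from the label female: the X-inactivation RNA Xist stood at 0.519 CPM in NoSelect and 0.065 in PolyA, against at least 1900 and 365 in the other 7 mice. Arntl was at 36.9 to 39.3 CPM in the 4 WT and 22.0 to 24.9 in the 4 KO NoSelect libraries. In PolyA it was at 26.9 to 31.9 in WT and 23.1 to 26.7 in KO, and counts over a whole gene cannot check a deletion within it.

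In all, 17576 rows were tested with edgeR's quasi-likelihood test with the mouse as a block, and a row was called when its Benjamini-Hochberg adjusted p was under 0.05 and it differed at least 2-fold (a log2 fold change of at least 1 in size). On this rule 4304 rows (24.5%) were called, 1430 higher in PolyA (8.14%) and 2874 lower (16.4%). By the adjusted p alone, without the 2-fold condition, 85.7% of the rows would pass. The 8 libraries of each preparation did not overlap in 53.5% of the rows, which is the background for every non-overlap given below. Every fold change below is PolyA over NoSelect. The median over all rows was 0.04 under TMM and 0.01 under median-of-ratios factors. Scaling by total counts moved it to 0.49, and the calls to 4322 higher and 1844 lower, so the groups of genes are given relative to the median of all rows. Mice are separate animals, and the p-values measure the spread between these 8 pairs.

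Shares of RNA classes and of single RNAs are of the counts outside the 2 rows left out, unless stated. Protein-coding rows made up 72.6% ± 1.43 of these counts in a NoSelect library and 93.5% ± 0.513 in a PolyA library (mean and SD, n = 8 mice). The classes that lost the most percentage points were mitochondrial ribosomal RNA, from 9.38% ± 0.811 to 0.0586% ± 0.00865, and the annotation's miscellaneous RNA class, from 8.80% ± 0.492 to 0.000926% ± 0.000134. Small nuclear RNA went from 1.54% ± 0.413 to 0.000114%, small nucleolar RNA from 0.281% ± 0.0611 to 0.00121%, and long intergenic noncoding RNA from 3.52% ± 0.149 to 0.568% ± 0.0678. Most of the fall of the long intergenic class lay in 1 row, Malat1, which went from 2.55% to 0.0355%. Mitochondrial mRNA gained, from 1.51% ± 0.0849 to 3.28% ± 0.277. Each of the 23 classes with at least 0.01% of the counts of either preparation moved the same way in 8 of 8 mice (exact paired permutation test over 8 pairs, two-sided, p = 0.0078, adjusted p = 0.0078, the smallest that 8 pairs can give). Shares of a fixed total depend on each other, so a class can gain share only because others lost it.

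**Figure D1:**
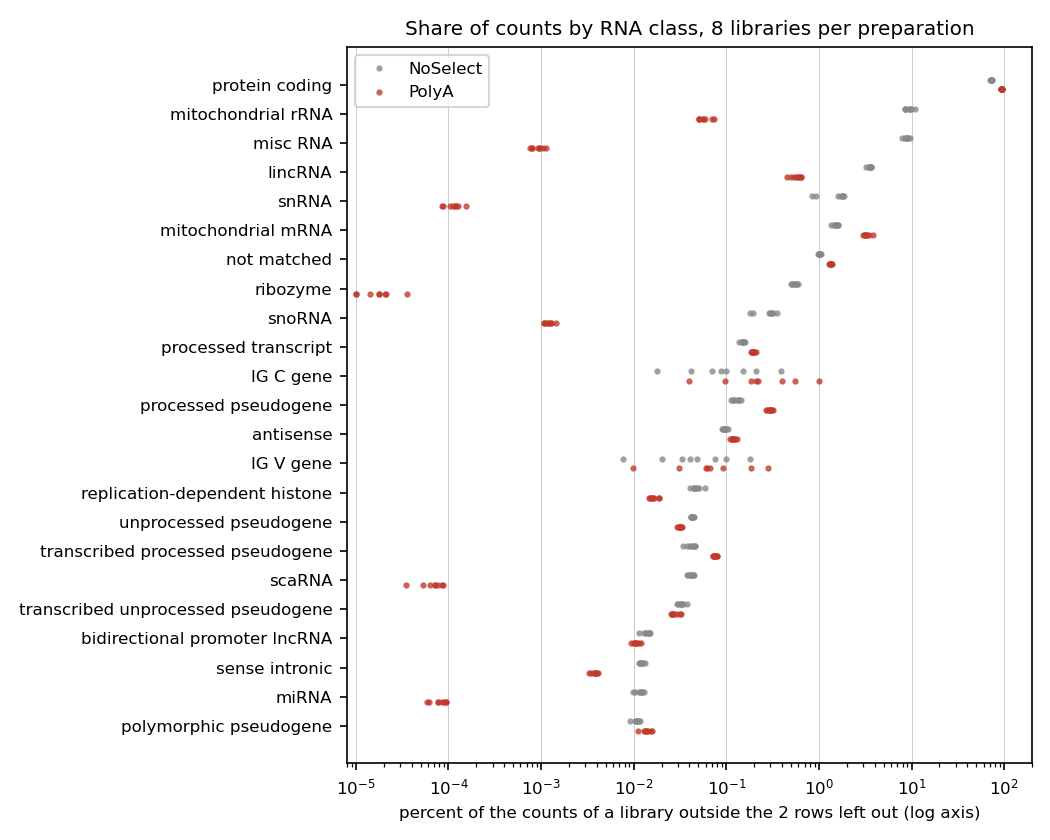
Percent of the counts outside the 2 rows left out, on a log axis, for each of 23 RNA classes, with 1 point per library (grey NoSelect, red PolyA, 8 mice each, values under 0.00001% drawn there). The red points of mitochondrial rRNA, miscellaneous RNA, snRNA, ribozyme, snoRNA, scaRNA and miRNA lie at least 145-fold below the grey ones on average, while protein-coding rows and mitochondrial mRNA lie above them.

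The RNA polymerase III products and the small nuclear and nucleolar RNAs were close to absent from the PolyA libraries. To show how these RNAs end or begin, the sequences of a few are given 5′ to 3′ from GENCODE M21 (GRCm38), read along the transcript. Capitals mark the closing T run of the Y RNAs and of 7SK, the letters of the U1-type RNA that pair with the 5′ splice site, and the C and D boxes of a nucleolar RNA.
Rny1 (chr6:47788069-47788098, minus strand): cttctcactactgcacttgactagtcTTTT
Rny3 (chr6:47781696-47781725, plus strand): gctcccactgcttcacttgaccagccTTTT
Rn7sk (chr9:78175303-78175332, minus strand): ggcgctgcatgtggcagtctgcctttcTTT
Gm22513, first bases (chr12:54696782-54696811, plus strand): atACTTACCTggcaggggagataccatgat
Snord15b, first bases (chr7:99479678-99479707, minus strand): cttcagTGATGAcacgatgacgagtcagaa
Snord15b, last bases (chr7:99479563-99479592, minus strand): gattgatttagaggcatttgtCTGAgaagg
The letters alone are not rare: on the transcript strand, 3.06% of the 141767 transcripts of GENCODE M21 end in TTT. ACTTACCT stands in the first 30 bases of 0.0628% of them, and TGATGA in the first 30 together with CTGA in the last 30 of 0.347%.

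All 8 RNA polymerase III and vault RNAs tested were lower in PolyA. Rn7sk, the scaffold that holds the elongation factor P-TEFb inactive, was at 19083, 19852 and 22177 CPM (lowest, median and highest of 8 mice) in NoSelect and at 0.444, 0.817 and 0.966 in PolyA. The lowest NoSelect library lay over 4 orders of magnitude above the highest PolyA library, and the log2 fold change was -14.71 (SE 0.0968, edgeR's quasi-likelihood test, adjusted p = 1.4e-17). Rn7s1 and Rn7s2, the 7SL RNA of the signal recognition particle, are identical over 300 of 300 bases and share their reads; each fell by 14.50 on the log2 scale, from a median of 41028 CPM for Rn7s1 to 1.74. Rmrp, the RNA of RNase MRP, fell by 15.22 from a median of 2484 CPM to 0.0504, and Rpph1, the RNA of RNase P, fell by 15.39 from 3930 CPM to 0.0869.
Where no PolyA library exceeded 3 counts, only a lower bound of the fold is given, against 3 counts per library. On that basis Rny1 and Rny3, the Y RNAs of the Ro particle, were at least 1980-fold and 1373-fold lower. The vault RNA Vaultrc5, a part of the large vault particle, was at least 3705-fold lower.

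Of 45 small nuclear RNA rows tested, 45 were lower in PolyA, and 43 of them never exceeded 3 counts in PolyA. Gm22513, which matches the U1 gene Rnu1a1 at 163 of 164 positions, was at 3970, 6790 and 7845 CPM in NoSelect and at 0.0435, 0.0879 and 0.178 in PolyA, a log2 fold change of -16.07 (SE 0.0829). Rnu2-10, a U2 gene whose RNA recognises the branch point, was at least 22344-fold lower, and Gm24265, an snRNA row by its annotated class, at least 11602-fold. Copies of these genes are near-identical, so the division of reads among the rows is uncertain, while their summed share is less so. That share split the NoSelect libraries: it was 0.848% and 0.931% in WT mouse 5 and KO mouse 5 and 1.59% to 1.86% in the other 6. The same 2 libraries had the lowest snoRNA shares, 0.181% and 0.194%, against 0.287% to 0.354%, and they lay far above every PolyA library in both classes.

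Small nucleolar RNAs guide the modification of ribosomal RNA, and 93 of 94 tested were lower in PolyA. Snord17 was at least 3473-fold lower, Snord15b at least 2733-fold and Gm22988 at least 3616-fold. The exception was Snora43, which was at 6.45, 7.27 and 7.59 CPM in NoSelect and 5.31, 6.29 and 7.64 in PolyA; the groups overlapped and the log2 fold change was -0.15 (SE 0.0745, adjusted p = 0.085), or 0.30 under total-count scaling. All 13 small Cajal-body RNAs tested were lower, with Scarna2 at least 1339-fold lower, and Gm22009 fell by 9.84 on the log2 scale. The long transcripts that host snoRNAs in their introns did not follow them. Of 12 host genes tested, 0 were called in either direction by edgeR's test or DESeq2 at 2-fold. In edgeR's test 11 had both an unadjusted and an adjusted p under 0.05. The median of the 12 lay 0.79 above that of all rows. Under total-count scaling, which raises all rows, 8 of the 12 were called higher, with a median of 1.28. Gas5, a host gene of many box C/D RNAs, was at 50.05 to 60.9 CPM in NoSelect and 93.6 to 103 in PolyA. Snhg12 was at 6.17 to 7.88 CPM in NoSelect and 12.9 to 16.4 in PolyA (log2 fold change 1.00, just short of the rule, and called when WT mouse 3, 4 or 5 was left out). Neither gene's ranges overlapped, as for 53.5% of all rows tested.

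Both mitochondrial ribosomal RNAs fell. mt-Rnr2, the large-subunit RNA, was at 57061, 64812 and 78363 CPM in NoSelect and 273, 308 and 404 in PolyA, a log2 fold change of -7.66 (SE 0.0517). mt-Rnr1, the small-subunit RNA, fell by 7.95, from a median of 45400 CPM to 174. The residue in PolyA was thus larger for these 2 RNAs than for the RNA polymerase III products, since every PolyA library still held at least 152 CPM of each.

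Of the 13 mitochondrial mRNAs, mt-Co3 was called higher, mt-Nd6 was called lower, and 11 were not called. mt-Co3, a subunit of cytochrome c oxidase, was at 1416, 1587 and 1827 CPM in NoSelect and 2933, 3193 and 4027 in PolyA (log2 fold change 1.04, SE 0.0351). The other 2 cytochrome oxidase mRNAs lay close to it, mt-Co2 at 0.99 (called when WT mouse 3, 4 or 5 was left out) and mt-Co1 at 0.85, and the ranges of the 2 preparations did not overlap for any of the 3, as for 53.5% of all rows tested. The NADH dehydrogenase subunits spread more widely: mt-Nd1 was at 0.66, mt-Nd3 at 0.61, mt-Nd4 at 0.28, mt-Nd2 at 0.23, mt-Nd4l at -0.16 and mt-Nd5 at -0.27, the last 2 above 0 under total-count scaling. mt-Nd6, the only mRNA read from the light strand and one known in human cells to lack a stable tail, was at 79.8, 93.8 and 115.3 CPM in NoSelect and 8.57, 10.7 and 12.7 in PolyA. All 8 PolyA libraries lay below the lowest NoSelect library, and the log2 fold change was -3.17 (SE 0.0558, edgeR's quasi-likelihood test, adjusted p = 1.5e-13). Reads from a mitochondrial gene and from the opposite strand of its neighbours can be told apart only if the counting used strand, which is not given in the sources used here.

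Long noncoding RNAs went both ways. Of 296 long intergenic rows tested, 24 were higher and 100 lower in PolyA, and of 318 antisense rows 29 were higher and 73 lower. Among 12 nuclear and imprinted long noncoding RNAs tested, 7 fell and 0 rose, and their median lay 1.13 below that of all rows. Malat1, a nuclear speckle RNA whose mature 3′ end is a triple helix without a tail, was at 28986, 29760 and 30932 CPM in NoSelect and 221, 328 and 374 in PolyA. The NoSelect libraries differed by little and lay far above every PolyA library, with a log2 fold change of -6.64 (SE 0.115, adjusted p = 1.3e-13). Malat1 alone held 2.55% of the NoSelect counts and 0.0355% of the PolyA counts. Neat1, its neighbour and the scaffold of paraspeckles, has a short tailed and a long untailed form. It was at 2618, 3326 and 4492 CPM in NoSelect and 2576, 2998 and 3691 in PolyA; the groups overlapped, and the log2 fold change of -0.12 (SE 0.107) had an adjusted p of 0.29 and turned to 0.32 under total-count scaling.

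The RNAs of the X-inactivation centre fell together. Xist, which coats the inactive X chromosome, was at 1900 to 2121 CPM in NoSelect and 365 to 444 in PolyA in the 7 mice other than KO mouse 6, and its log2 fold change was -2.28 (SE 0.0421) with or without that mouse. Tsix, its antisense partner, fell by 2.14, Jpx, an activator of Xist, by 1.82, and Ftx by 1.12. Tsix overlaps Xist on the opposite strand and is far less abundant in counts, so reads cannot be assigned to it with certainty. Airn, the long antisense RNA that silences the imprinted Igf2r region, fell by 2.07, from 23.9 to 30.3 CPM to 4.82 to 8.05, and it too overlaps Igf2r on the opposite strand. Mirg, a host of imprinted microRNAs, fell by 1.04, with overlapping ranges, and lost its call without WT mouse 5 (-0.93). The imprinted RNAs Meg3 (log2 fold change 0.10), Rian (-0.10, or 0.35 under total-count scaling) and H19 (0.02, or -0.01 with median-of-ratios factors) were not called, and the preparations overlapped in each. The lung-enriched Fendrr, a regulator of mesenchyme development, was at 298 to 373 CPM in NoSelect and 423 to 554 in PolyA (0.56, not called). AW112010, an RNA of activated immune cells, rose by 1.33 (SE 0.0372) and 4632427E13Rik fell by 4.93 (SE 0.0615). Under total-count scaling Ftx and Mirg were no longer called.

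**Figure D2:**
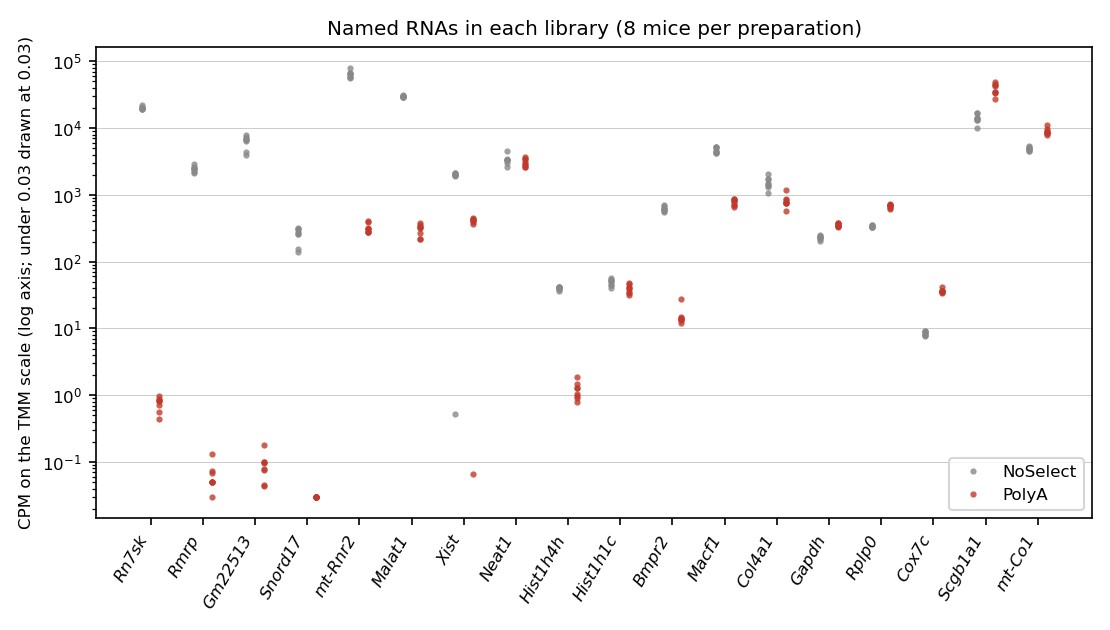
CPM on the TMM scale, on a log axis, of 18 named RNAs in each library (grey NoSelect, red PolyA, 8 mice each, values under 0.03 drawn at 0.03). The small RNAs, mt-Rnr2 and Malat1 separate by 2 to 5 orders of magnitude, Neat1 overlaps, and the single low pair of Xist points is KO mouse 6.

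The replication-dependent histone mRNAs, which package new DNA in S phase, were close to absent after selection for most genes, and a handful were not. Of 55 rows tested, 49 were lower, 0 were higher and 6 were not called, beside 16.4% lower among all rows. In 27 of the 55 every PolyA library was at or under 3 counts, so the fitted median of -6.68 is no bound, and with those rows at their bounds it was -5.39. The class as a whole fell from 0.0473% ± 0.00531 to 0.0163% ± 0.00164 of the counts (n = 8); with the 2 abundant rows kept in the totals, it was 0.00173 percentage points higher in PolyA instead, which did not pass the exact permutation test. Letters at the 3′ end are shown for 4 genes with the stem-loop and 3 with a poly(A) signal, in capitals, each read along the transcript in GENCODE M21 (GRCm38).
Hist1h2ab (chr13:23751565-23751594, plus strand): aaacaaaGGCTCTTTTCAGAGCCacccaca
Hist1h3a (chr13:23761883-23761912, minus strand): aaccaaaGGCTCTTTTCAGAGCCacacacg
Hist1h4f (chr13:23551284-23551313, minus strand): tctcaaaGGCCCTTTTCAGGGCCacccact
Hist1h4h (chr13:23531451-23531480, plus strand): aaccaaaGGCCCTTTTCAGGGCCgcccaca
Hist1h1c (chr13:23740330-23740359, plus strand): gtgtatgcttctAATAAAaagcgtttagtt
Hist2h2be (chr3:96223705-96223734, plus strand): gttattattattAATAAAgttaccgattag
Hist3h2a (chr11:58956785-58956814, plus strand): aggtatatgcccAATAAAataagagtacgt
The stem-loop letters (GG, 2 bases of any kind, CTTTT, 1 of any kind, AG, 2 of any kind, CC) were searched in the last 150 bases of every annotated transcript, on the transcript strand only, and were found in 23 of 37649 gene rows (0.0611%). AATAAA or ATTAAA in the last 50 bases was found in 53.5% of the same rows and in 81.5% of protein-coding ones. A gene whose annotated transcript stops at the coding sequence can show neither.

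Of the 20 histone rows with the stem-loop letters, 19 were lower and 1, Hist2h2aa2, was not called, and of the 35 without them 30 were lower. Of the 14 with a signal, 11 were lower, with a median of -4.24 at bounds, and of the 41 without one 38 were lower, with a median of -5.67. Hist1h4d, an H4 gene, was at 52.1, 55.2 and 58.2 CPM in NoSelect and 0, 0.0593 and 0.124 in PolyA, and fell by 9.80 (SE 0.108). Hist1h1e, a linker histone, fell by 8.21 from a median of 37.6 CPM to 0.113. Hist1h4h, which holds both kinds of letters, was at 36.9 to 42.1 CPM and 0.782 to 1.85 and fell by 5.07 (SE 0.103). Hist1h4f was at least 126-fold lower, Hist2h3b at least 90.8-fold, Hist1h2ab at least 42.6-fold and Hist1h3a at least 41.9-fold. No PolyA library reached the lowest NoSelect library for any of these genes, against 53.5% of all rows without overlap in either direction.

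Of the 6 that were not called, 3 carry a signal. Hist1h1c, the linker histone H1.2, was at 40.4, 50.6 and 56.2 CPM in NoSelect and 32.0, 39.5 and 48.1 in PolyA, so the ranges overlapped, and its log2 fold change was -0.33 (SE 0.0492) or 0.12 under total-count scaling. Hist1h2bc, an H2B gene, was at 30.7 to 36.3 and 45.6 to 58.5 CPM (0.61), Hist3h2a at 8.43 to 13.5 and 12.6 to 21.7 (0.63) and Hist2h2be at 5.91 to 7.41 and 7.97 to 11.9 (0.61). Each of these 3 was higher in PolyA in 8 of 8 mice. Hist2h2aa2 was at 0.52 and Hist2h3c2 at -0.59, and both have near-identical copies that can share reads. The 11 replication-independent variants, which are expressed outside S phase from polyadenylated mRNAs, behaved as other short mRNAs: H2afz (1.08) and H2afv (1.06) rose, and H3f3b (0.81) and H3f3a (0.54) were among 9 not called. Of 7 factors of histone mRNA 3′ ends, Npat, which activates histone genes, fell by 1.46 and Casp8ap2, needed for their processing, by 1.98, while Slbp, the protein that binds the stem-loop, was at 0.58.

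**Figure D3:**
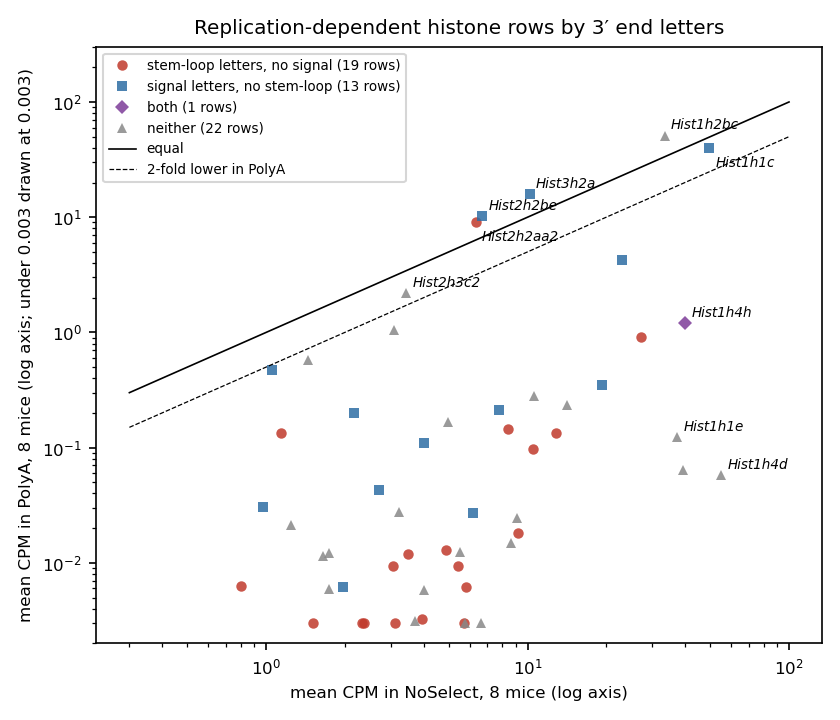
Mean CPM in PolyA against NoSelect (8 mice each, both axes log, PolyA means under 0.003 drawn at 0.003) for 55 replication-dependent histone rows, marked by the letters found at their 3′ ends. A group of 6 rows lies near the line of equal values, 49 lie below the dashed 2-fold line, and the 1 row with both kinds of letters, Hist1h4h, lies with the lower ones.

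Among 14876 protein-coding rows 1051 were higher (7.07%) and 1863 lower (12.5%), 19.6% in all, or 3674 and 992 under total-count scaling. The direction followed the length of the mRNA. For the 14808 rows with a coding transcript, the median log2 fold change was 1.02 where the longest one was at most 1000 bases, 0.67 from there to 2000 bases, 0.30 to 3000, 0.01 to 4000, -0.36 to 6000, -0.87 to 8000 and -1.40 above. In the shortest group 52.2% of the rows were called higher and in the longest 70.7% were called lower. As a description over genes, which are not replicates and share libraries, Spearman's rho between length and fold change was -0.72, and it lay between -0.69 and -0.72 within each of the 8 mice. Both parts of the transcript moved with it: from a coding sequence of at most 500 bases with a 3′ UTR of at most 250 to one above 4000 with a 3′ UTR above 4000, the median went from 1.06 to -1.63.
Rows called higher had a median length of 1192 bases and those called lower of 6624, against 3065 for the rest. The share with a poly(A) signal hardly differed, at 89.0%, 88.4% and 89.1%. A run of at least 15 adenosines within an annotated transcript was found in 2.76% of the higher and 15.0% of the lower rows, which are also the longer ones. GC content moved with the calls as well, at a median of 52.6% in the higher and 46.1% in the lower rows. The separate parts of GC content and A runs in the length pattern were not tested.

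**Figure D4:**
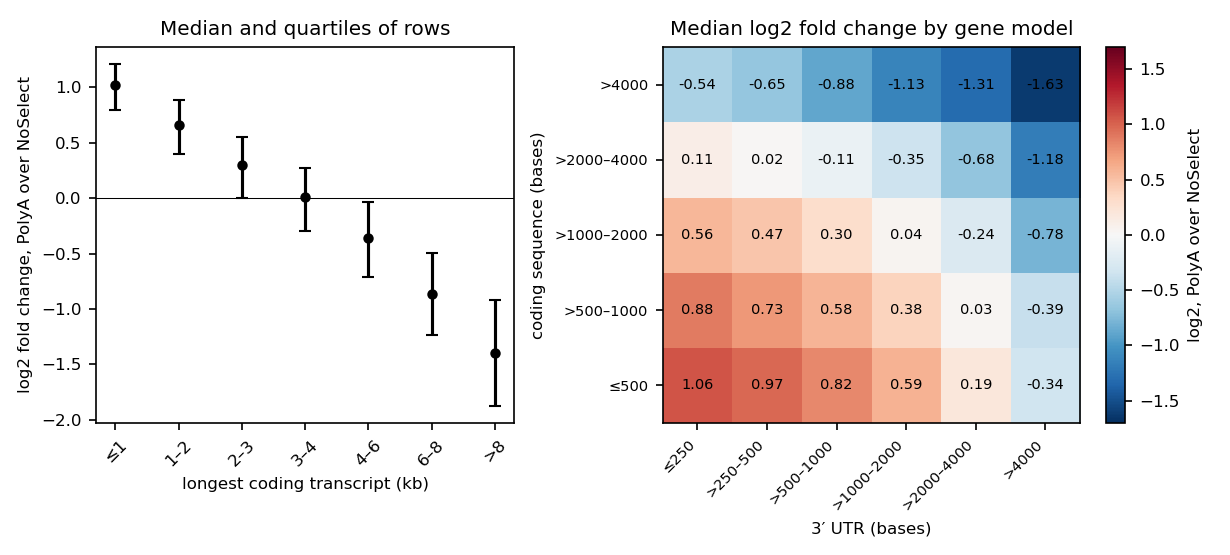
Left, median and quartiles of the log2 fold change, PolyA over NoSelect, of 14808 protein-coding rows by the length of the longest coding transcript. Right, the median by length of coding sequence and 3′ UTR, from 1.06 in the shortest class to -1.63 in the longest, with the steps continuing along both axes.

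Because length separates pathways, each list is given in 2 ways: as its median relative to all rows, and as the median after subtracting the median of rows of like length (20 equal bins of length), called the length-centred value. The longest bin is open-ended, from 8251 to 123179 bases, so length is only partly removed within it. The lists are described by counts, with 7.07% higher and 12.5% lower among protein-coding rows as background. Cytosolic ribosomal proteins lay 1.08 above the median of all rows: 62 of 82 rose and 0 fell. Rplp0, a stalk protein, was at 328, 336 and 358 CPM in NoSelect and 624, 694 and 726 in PolyA, without overlap, and rose by 1.01 (SE 0.0295), a call lost at 0.989 to 0.997 when KO mouse 3, 4 or 5 was left out and at 0.97 with median-of-ratios factors or DESeq2. Rpl4, a large-subunit protein, was at 0.88. The length-centred value of the list was 0.21. Of 78 mitochondrial ribosomal proteins 20 rose and 0 fell, 0.82 above all rows and 0.11 length-centred. Mrps33 rose by 1.47 and Mrpl24 by 1.03 (1.00 and no call with median-of-ratios factors or DESeq2), Mrpl4 was at 0.74, and the long-transcript member Mrps25 was at -0.30, or 0.15 under total-count scaling.

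The other translation lists moved less. Of 66 translation factors 7 rose and 1 fell. The highest was Eif3j2, an initiation factor subunit, at 0 to 0.280 CPM in NoSelect and 17.1 to 22.2 in PolyA (7.12, SE 0.212). Its paralog Eif3j1, with which it may share reads, was at 51.3 to 59.4 and 37.2 to 43.5 CPM (-0.50). Eef1a1, the elongation factor that delivers tRNA, was at 0.50 and Eef2, which drives translocation, at 0.23, and Eif4ebp2, a repressor of cap-dependent initiation with a long 3′ UTR, fell by 1.52 (SE 0.046). Of 21 aminoacyl-tRNA synthetases 0 were called in edgeR's quasi-likelihood test at 2-fold, and their median lay 0.19 above that of all rows. Of these, 19 had both an unadjusted and an adjusted p under 0.05 with smaller folds, and DESeq2 also called 0. Under total-count scaling 2 were called higher.

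Nuclear genes of oxidative phosphorylation lay 0.98 above all rows: 45 of 83 rose, 0 fell, and all 83 had a positive fold change under TMM. Cox7c, a small cytochrome oxidase subunit, was at 7.66, 8.47 and 9.17 CPM in NoSelect and 34.0, 36.3 and 41.3 in PolyA, the widest gap of the list at 2.11 (SE 0.0446). Atp5a1 (0.57) and Atp5b (0.46), the large ATP synthase subunits, and Ndufs1 (0.24), the largest subunit of complex I, were not called. Members that rose had a median coding transcript of 709 bases and the others of 1551, and the length-centred value was 0.12. In glycolysis 2 of 20 rose, Ldhb by 1.24 and Eno3 by 1.23, and Gapdh was at 0.63. In the tricarboxylic acid cycle 1 of 15 rose and 0 fell. Of 38 proteasome subunits 8 rose and 0 fell, 0.78 above all rows and 0.15 length-centred; the core subunit Psmb3 rose by 1.31 and the large lid and base subunits Psmd2 (0.40), Psmd1 (0.07) and Psmd11 (-0.24, 0.21 under total-count scaling) were not called. Sm and LSm proteins, the core of the spliceosomal particles, had 9 of 20 higher and 0 lower, 0.92 above all rows. Snrpb rose by 1.01 (0.98 and no call with median-of-ratios factors or DESeq2) and Lsm7 by 2.42, and Lsm8 was at 0.21. Snrpa, a U1 protein that is neither Sm nor LSm, was at 0.57.

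**Figure D5:**
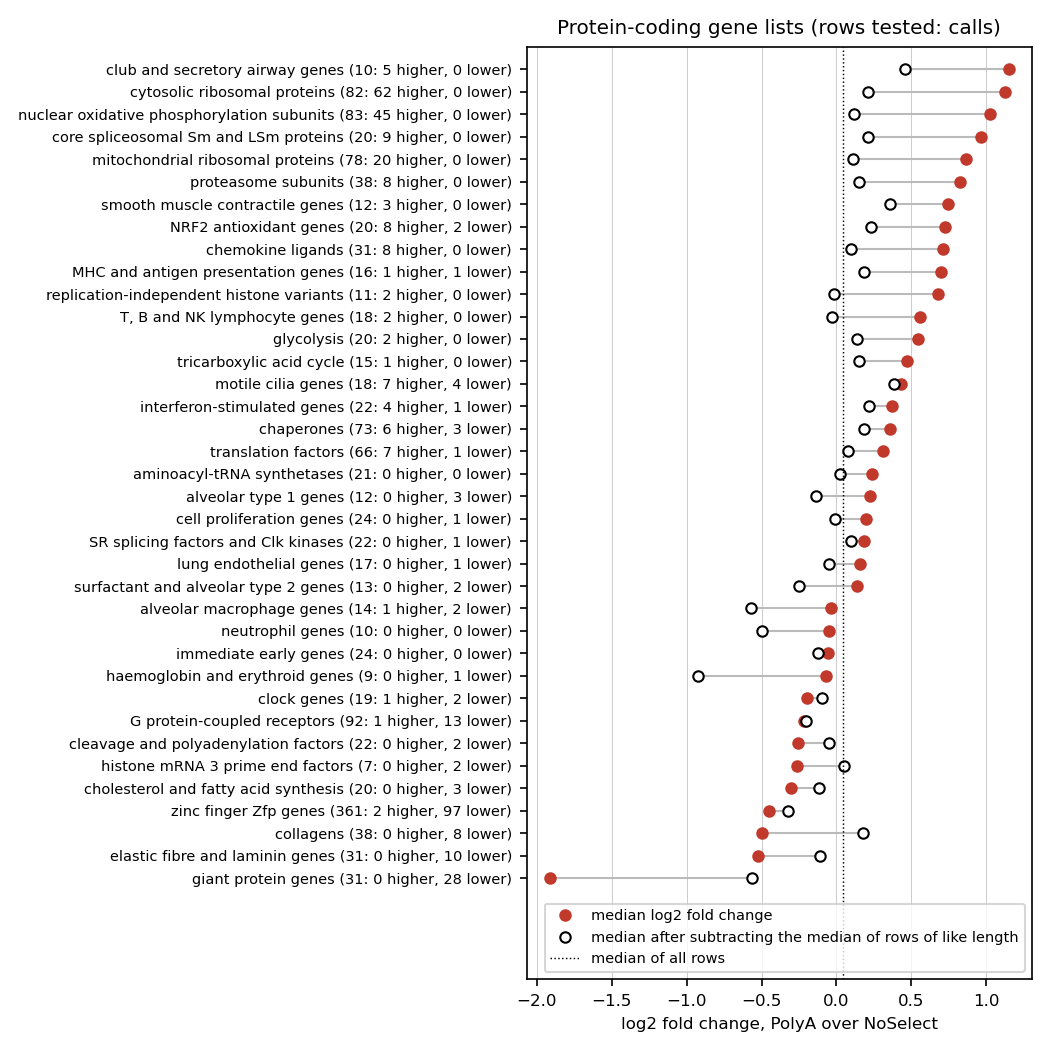
For each protein-coding gene list, the median log2 fold change of PolyA over NoSelect (red) and the same after subtracting the median of rows of like length (open circles), with the number of rows tested and called beside the name and the median of all rows as a dotted line. Ribosomal proteins and oxidative phosphorylation move from about 1 to near 0 once length is subtracted, collagens cross to above 0, and erythroid, macrophage and neutrophil genes lie below 0. Giant proteins also lie below, but their bin is open-ended and length is only partly removed.

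Genes of very large proteins were the mirror image. Of 31 giant protein genes, 28 fell and 0 rose, 1.96 below all rows, and 0.57 below the median of their length bins, which for most of them is the open-ended longest one, so a remainder of length cannot be told apart. Macf1, a cytoskeletal crosslinker, was at 4293, 4542 and 5229 CPM in NoSelect and 667, 795 and 862 in PolyA, and fell by 2.59 (SE 0.041). Ahnak, a scaffold at the cell membrane, fell by 2.50, from 6180 to 6803 CPM to 980 to 1381. Neither pair of ranges overlapped. Titin (Ttn), the sarcomere spring, fell by 4.40 (SE 0.128), and its level in NoSelect varied between mice from 36.2 to 273 CPM, lowest in KO mouse 3.

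Extracellular matrix genes lay lower too. Of 38 collagens 8 fell and 0 rose, 0.54 below all rows, but 0.18 above rows of like length. Col4a1 (-0.92) and Col4a2 (-0.82), the common chains of basement membrane, were not called; Col4a1 was at 1083, 1461 and 2029 CPM in NoSelect and 571, 772 and 1172 in PolyA, with overlap between mice but a lower value in PolyA in 8 of 8. Col4a4, a chain of the glomerular and alveolar basement membrane, fell by 2.24 (SE 0.0736), and Col9a3 was the highest at 0.74. Of 31 elastic fibre and laminin genes 10 fell and 0 rose, 0.57 below all rows and -0.11 length-centred. Hspg2 (perlecan) fell by 2.14 and Lama3, an epithelial laminin chain, by 2.35, while the short microfibril genes Mfap2 (0.82) and Mfap4 (0.50) were not called.

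Zinc finger genes named Zfp formed the largest list, and 97 of 361 fell while 2 rose, against the 12.5% and 7.07% of protein-coding rows. Their median lay 0.50 below all rows and their length-centred value was -0.33. Zfp871 was at 99.1, 105 and 108 CPM in NoSelect and 1.17, 1.89 and 4.57 in PolyA and fell by 5.6 (SE 0.167). Zfp652, a transcriptional repressor, fell by 1.39, Zfp36l1, which binds AU-rich elements, was at -0.36 (0.09 under total-count scaling), and the low Zfp428 rose by 1.1. Of 92 G protein-coupled receptors 13 fell and 1 rose, 0.26 below all rows and -0.20 length-centred. Gpr21, an orphan receptor, fell by 4.13, but it lies inside Rabgap1 on the same strand, so its reads are uncertain. Adgrf5, an adhesion receptor of lung endothelium and alveolar type 2 cells, was at 1708 to 2119 CPM in NoSelect and 888 to 1253 in PolyA (-0.88, not called), and Adgre5 was at -0.14, or 0.30 under total-count scaling. Adgra2, the 1 that rose (1.52, SE 0.423), was higher in PolyA in 6 of 8 mice, and its NoSelect level ran from 1.21 to 23.0 CPM. Cleavage and polyadenylation factors had 2 of 22 lower, Cpsf6 and Pcf11, each by 1.22. Papola, the poly(A) polymerase, was at -0.46, the tail-binding Pabpc1 at -0.43 (0.01 under total-count scaling) and the nuclear Pabpn1 at 0.92. Zfp652, Cpsf6 and Pcf11 were no longer called under total-count scaling.

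Markers of 1 lung cell type often lay on both sides of the median. In bulk samples fewer cells of a type and less RNA per cell cannot be told apart, but here both libraries of a mouse come from the same lung. Club and secretory airway genes had 5 of 10 higher and 0 lower, 1.11 above all rows and 0.46 length-centred. Scgb1a1, the club cell secretory protein, was at 9948, 13747 and 17047 CPM in NoSelect and 27390, 38692 and 48663 in PolyA, without overlap, and rose by 1.47 (SE 0.0396). It alone took 4.53% ± 0.783 of the PolyA counts and 1.20% ± 0.186 of the NoSelect counts outside the 2 rows left out. Scgb3a2 (1.58), Scgb3a1 (1.35), the airway defence protein Bpifa1 (1.4) and the antimicrobial lectin Reg3g (1.36) rose as well. Cyp2f2, the club cell cytochrome, was at 0.94. Muc5b, the airway mucin with the longest transcript of the list, was at -0.98 (SE 0.0804), just short of the call, and is called lower with median-of-ratios factors or DESeq2 (-1.01), or when KO mouse 3 or KO mouse 6 is left out.

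Motile cilia genes split by size: 7 of 18 rose and 4 fell, 0.38 above all rows and 0.38 length-centred. Members that rose had a median transcript of 1447 bases and those that fell of 13041. Rsph1, a radial spoke protein, rose by 1.44, Tuba1a, an alpha tubulin, by 1.14 and Foxj1, the master regulator of ciliated cells, by 1.05. Dnah12, an axonemal dynein heavy chain, was at 56.4, 73.6 and 86.6 CPM in NoSelect and 2.84, 5.40 and 7.39 in PolyA, and fell by 3.83 (SE 0.0949). Dnah5, mutated in ciliary dyskinesia, fell by 1.4, and under total-count scaling it was no longer called. Sec14l3, an abundant ciliated-cell gene, was at 0.08.

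Alveolar genes lay near the median of all rows as lists, but below rows of like length. For surfactant and alveolar type 2 genes, 0 of 13 rose and 2 fell, 0.09 above all rows and -0.25 length-centred. Sftpc, surfactant protein C, was at 4802, 6106 and 7079 CPM in NoSelect and 9628, 11972 and 13386 in PolyA; the groups did not overlap and the log2 fold change of 0.99 (SE 0.0234) just missed the call. Sftpb was at 0.12. Slc34a2, the phosphate transporter of type 2 cells, fell by 1.24 and Etv5, their transcription factor, by 1.09, and both calls were lost under total-count scaling. Of 12 alveolar type 1 genes 3 fell and 0 rose, 0.18 above all rows and -0.14 length-centred. Akap5 fell by 1.61. Ager (0.68), the receptor that marks these cells, and Cav1 (0.26), the caveolae protein, were not called. Of 17 endothelial genes 1 fell, Calcrl, the adrenomedullin receptor, by 1.50. Cldn5 (0.96) and Cdh5 (-0.69), both proteins of endothelial cell junctions, lay on opposite sides. Smooth muscle contractile genes had 3 of 12 higher and 0 lower, 0.70 above all rows and 0.36 length-centred. Tagln rose by 1.18 and Cnn1 by 1.22, Acta2 was at 0.82, and Mylk, the long kinase gene of the list, was at -0.81.

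Immune lists lay on both sides of rows of like length. The length-centred value was 0.19 for antigen presentation, 0.22 for interferon-stimulated genes, 0.10 for chemokines and -0.03 for lymphocyte genes. Alveolar macrophage genes had 1 of 14 higher and 2 lower, 0.08 below all rows (0.04 above with no filter on low counts), but 0.57 below rows of like length. Mrc1, the mannose receptor, fell by 1.41, from 75.1 to 112 CPM to 28.4 to 43.6, and Siglecf, a surface marker of these cells, by 1.32; neither gene's ranges overlapped, and both calls were lost under total-count scaling. Chil3, a chitinase-like secreted protein with a short transcript, was at -0.72, Ctsd, a lysosomal protease, at 0.19, and Fabp4 rose by 1.247. Of 10 neutrophil genes 0 were called in edgeR's test at 2-fold, and their length-centred value was -0.49. In that test 8 had both an unadjusted and an adjusted p under 0.05. DESeq2 called 0, and 3 were called higher under total-count scaling. Of 9 haemoglobin and erythroid genes 1 fell, Slc4a1, the anion exchanger, by 1.95, and the length-centred value of the list was -0.92; Hbb-bs, adult beta globin, was at 99.4 to 687 CPM in NoSelect and 134 to 1053 in PolyA (0.36). Of 18 lymphocyte genes 2 rose, Cd3g by 1.12 and Cd3d by 1.05, both T cell receptor subunits. Immunoglobulin constant rows gained share, from 0.133% ± 0.121 to 0.337% ± 0.312, although mice differed widely, from 0.0178% to 0.393% within NoSelect. Igha, the IgA heavy chain, was at 112, 584 and 2563 CPM in NoSelect and 207, 1131 and 5153 in PolyA, and its log2 fold change of 0.96 had an SE of 0.0291, since it is taken within each mouse. Igkc was at 0.76, and Iglc2 rose by 1.18.

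Of 16 antigen presentation genes H2-K1, a class I heavy chain, rose by 1.02 (0.99 and no call with median-of-ratios factors or DESeq2) and Ciita, the regulator of class II genes, fell by 1.09, while H2-D1 (0.74) and Cd74 (0.45) were not called. Of 22 interferon-stimulated genes 4 rose and 1 fell: Bst2, which tethers virions, rose by 1.44 and the ubiquitin-like Isg15 by 1.24, and Ifih1, a sensor of viral RNA with a long transcript, fell by 1.09. Chemokine ligands had 8 of 31 higher and 0 lower, 0.67 above all rows. Ccl20 rose by 1.44, Cxcl15, the lung chemokine lungkine, was at 0.53, and Cxcl12 was at -0.26, or 0.19 under total-count scaling. Ciita and Ifih1 lost their calls under that scaling.

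Genes of the NRF2 antioxidant response had 8 of 20 higher and 2 lower, 0.68 above all rows and 0.23 length-centred. Prdx1, a peroxiredoxin, was at 126 to 158 CPM in NoSelect and 295 to 365 in PolyA and rose by 1.20. Gpx1 rose by 1.09, Txn1, thioredoxin, by 1.12 and Gsta1, a glutathione transferase near the detection limit, by 1.33, while Cat (0.23) and Gstm1 (0.70) were not called. Srxn1, sulfiredoxin, fell by 3.17 (SE 0.468), but its NoSelect level was 16.7 to 21 CPM in 6 libraries and 0.377 and 0.519 in WT mouse 5 and KO mouse 6. The cystine transporter Slc7a11 fell by 1.02 and lost its call under total-count scaling, and also when KO mouse 4, WT mouse 4 or WT mouse 6 was left out. In cholesterol and fatty acid synthesis 3 of 20 fell: Fasn, fatty acid synthase, by 1.75, Acaca, its supplier of malonyl-CoA, by 1.69 and Scd1, the desaturase, by 1.16, the last not under total-count scaling. Among 24 cell proliferation genes Mki67 fell by 1.32, again not under total-count scaling, and Pcna was at 0.76. Of 24 immediate early genes 0 were called by edgeR's test or DESeq2 at 2-fold, and 5 were called higher under total-count scaling. In edgeR's test 20 had both an unadjusted and an adjusted p under 0.05. The list lay 0.10 below all rows, or 0.02 above with no filter on low counts. The clock list had 1 of 19 higher and 2 lower: Ciart, a repressor in the loop, rose by 1.09, Clock, the partner of BMAL1, fell by 1.65 and Rora, an activator of Arntl, by 1.71.

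Outside the histone, ribosomal and mitochondrially encoded lists, protein-coding rows were ranked if their average log2 CPM reached 5 and each library held over 3 counts, and the 5 highest and 5 lowest calls are given. Pakap was at 296, 310 and 365 CPM in NoSelect and 0.951, 2.03 and 3.61 in PolyA, and fell by 7.21 (SE 0.166). It is a read-through gene that overlaps Akap2 on the same strand, which was at a mean of 616 CPM and 446 (-0.47), so the division between them is uncertain. Bmpr2, the BMP receptor mutated in heritable pulmonary hypertension, was at 556, 623 and 707 CPM in NoSelect and 12, 13.8 and 27.3 in PolyA, and no libraries overlapped. It fell by 5.38 (SE 0.106) and lay 3.94 below the median of the open-ended longest bin; its longest annotated 3′ UTR has 8532 bases. The other members were Zfp871, Nhsl2, which fell by 5.50, and 9930111J21Rik1, an interferon-inducible GTPase row that overlaps Psme2b, which fell by 5.42.
At the other end Kdelr1, which returns proteins to the endoplasmic reticulum, was at 86.4 to 102 CPM in PolyA and at 0.374 to 0.838 in 7 NoSelect libraries, but at 26.2 in KO mouse 5. Its log2 fold change was 5.29 (SE 0.568), and 7.43 without that mouse. Slc39a7, a zinc transporter of the same compartment, rose by 2.22, and a read-through row that overlaps it, Gm20427, was at a mean of 69.3 CPM in NoSelect and 21.8 in PolyA. Trf, transferrin, rose by 2.20, with 302 CPM in the NoSelect library of WT mouse 3 and 78.8 to 98.3 in the other 7. Gm9780 rose by 1.78 and Nrbp1 by 1.59.

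Some rows that share sequence differed in opposite directions. Rps12 was at 0 in all 8 NoSelect libraries and at 372 to 451 CPM in PolyA, at least 3058-fold higher, while its pseudogene Rps12-ps3 was at 169 to 191 CPM and 39.8 to 55.6. Summed over Rps12 and its 22 pseudogene rows, the level was 179 ± 7.64 CPM in NoSelect and 453 ± 26.7 in PolyA (n = 8), a mean log2 ratio of 1.34 ± 0.093, beside a median of 1.13 for the ribosomal protein list. The sums gave 1.18 for Rps23, 1.03 for Rpl10, 0.79 for Rps16 and 1.78 for Rpl28. For Rps13 the sum itself varied between mice, from 1.05 to 88.9 CPM in NoSelect, with a mean log2 ratio of 2.71 ± 2.03. The pseudogenes Gm8430 and Rpl28-ps1 were at 0 in NoSelect and at least 630-fold and 633-fold higher in PolyA, and Gm10052 was at 61.8 to 67.5 CPM in NoSelect and at 0 in PolyA. Of 256 processed pseudogene rows tested, 54 were higher and 135 lower, and these calls are uncertain for that reason. The rows Gm7536 (1.02, not called without KO mouse 3 or, at 0.99, with median-of-ratios factors or DESeq2) and Gm10275 (1.23) rose with non-overlapping ranges. The ubiquitin-conjugating enzyme gene Ube2l3 was at 63.0 to 73.0 CPM in NoSelect and at 0 in every PolyA library. Whether it shares reads with another row was not tested.

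With totals outside the 2 rows left out made equal, more rows were detected only without selection than only with it. As a whole the NoSelect libraries held more counts than the PolyA libraries, and those 2 rows took most of the NoSelect counts. Thinned to 22004860 to 22015671 counts outside the 2 rows, 14663 rows had at least 10 counts in all 16 libraries, 378 rows had them in all 8 NoSelect libraries and in no PolyA library, and 77 the other way round. The 378 included 74 snoRNA, 43 snRNA, 28 histone, 21 sense intronic and 23 protein-coding rows. They also held 52 processed pseudogene rows and 70 rows not matched to the annotation. Most of the 77 were not matched (56) or processed pseudogenes (15), and 3 were protein-coding rows, among them Rps12. Between mice the 2 kinds of library had similar spreads. Over 11214 well-counted rows the median SD on the log2 scale was 0.113 in PolyA and 0.101 in NoSelect, and 0.109 for the ratio within a mouse. Each NoSelect library combined 6 preparations, so these SDs do not compare the steadiness of the 2 protocols like for like.

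With 4 mice per genotype, few rows passed a test for a different PolyA to NoSelect ratio in WT and KO mice. This does not show that the other rows are alike. In edgeR's test of the preparation-by-genotype term 1 of 17576 rows passed at an adjusted p under 0.05 (0.00569%), and 1463 (8.32%) had an unadjusted p under 0.05. The 1 row was Gsta3, an NRF2 list member. It was at 70.6 to 86.7 CPM in WT and 32.3 to 46.3 in KO in NoSelect, and at 123 to 162 and 80.6 to 110 in PolyA. Its ratio within a mouse was 0.84 ± 0.0539 in WT and 1.33 ± 0.0725 in KO (log2, n = 4 each, no overlap), a difference of 0.49 (SE 0.0509, edgeR's quasi-likelihood test, adjusted p = 0.0237). The call was lost when KO mouse 3, KO mouse 5, WT mouse 3, WT mouse 4 or WT mouse 5 was left out. For Arntl itself the ratio ran from -0.45 to -0.28 in WT and from -0.09 to 0.12 in KO, a difference of 0.40 (SE 0.0634) whose adjusted p of 0.39 in the same test missed the threshold.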

How the data were processed

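Gene-level counts from 8 PolyA and 8 NoSelect libraries of the same 8 mouse lungs were compared. The deposited table holds estimated counts per row, made by the authors with Salmon 1.4.0 after UMI-tools 1.1.1, on GRCm38, per the submitters' processing notes; the alignment and counting settings, including strand, are not given in the sources used here. Of its values 12.8% were not whole, and they were rounded. How reads are divided among near-identical rows depends on that estimation. Rows were matched to GENCODE M21 (37649 of 37751 gene identifiers and 328 of 3936 transcript identifiers). The remaining rows of both kinds are called not matched.

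The rows Lars2 and ENSMUST00000182010 were left out of all totals. Remaining totals were 22009219 to 41510367 counts, and a fold against libraries at or under 3 counts is given as a lower bound. R 4.3.3 with edgeR 4.0.16 (filterByExpr, TMM, quasi-likelihood test, Benjamini-Hochberg) fitted preparation with the mouse as a block, and, separately, its interaction with genotype. DESeq2 1.42.0 was an alternative; Python 3.11.15 made the summaries, with an exact paired permutation test for class shares. Ratios within a mouse used a pseudocount of 0.1 CPM. The pairing comes from the mouse names: the same-mouse correlation of deviations from the preparation means was 0.344 to 0.608 over 11260 rows, and 8 of 8 PolyA libraries correlated best with their own mouse. No pair of replicates agreed within counting noise (chi-square per degree of freedom 11.4 to 44.7 over 24 pairs).

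In simulated data 200 rows were changed by a log2 of 2, equally often up and down. All other rows had the same expected share in both preparations. The test of preparation recovered 97% of the 200 over 17476 rows, with 0% false among its calls. The interaction test recovered 97.5% over 17466 rows, with 3.94% false. In the real data 85.7% of rows passed the adjusted p alone, so the simulation does not give the rate of false calls there. Each list's named genes are its 2 most abundant, highest and lowest members, with any member of lists of up to 25; other rows were named as the 5 highest and 5 lowest protein-coding calls, or by abundance and size of call within an RNA class. Rows named outside these rules were chosen after their values were seen. The rows, lists and comparisons were chosen with earlier results of these data known. Other scalings, filters, tools, left-out mice, single genotypes and a fit without the block were tried. Libraries of other preparations and of other mice were not used here. Results of 2 list members are not reported here.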

Additional observations from a re-analysis of the deposited data

Results flagged for a closer look

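In 249 groups of 8 libraries or of 8 within-mouse ratios, 20 held 1 mouse far from the other 7, and chance flags about 1 in 20 groups. KO mouse 6 stood apart in 6: its NoSelect share of long intergenic RNA was 3.21% (median of 8 mice 3.54%) and of polymorphic pseudogenes 0.00909% (0.0108%), and its PolyA share of ribozyme rows was 3.6e-05% (1.8e-05%), a few counts. Its log2 ratios of PolyA over NoSelect were -7.38 for mt-Rnr2 (median -7.70), -1.36 for Clock (-1.68) and -4.64 for Bmpr2 (-5.44).

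Among KO mice, mouse 3 stood high for mt-Nd1 at 0.88 (median 0.64), mt-Co3 at 1.26 (1.02) and Foxj1 at 1.36 (0.99), and mouse 4 for Isg15 at 1.54 (1.18). KO mouse 5 stood low for mt-Atp8 at -0.52 (0.14), mt-Nd3 at 0.32 (0.63) and Kdelr1 at 1.85 (7.21). Among WT mice, mouse 3 stood low for Slc39a7 at 1.92 (2.24) and Trf at 0.52 (2.40). WT mouse 4 stood low for AW112010 at 1.06 (1.36) and high for Gsta1 at 2.26 (0.93), which is counted near 0 in every library. WT mouse 6 stood low for Hist1h1c at -0.70 (-0.28), Slbp at 0.38 (0.58) and Psmd2 at 0.25 (0.42).

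Gsta3 differed between genotypes in the ratio by 0.49 on the log2 scale (KO over WT), with all 4 KO mice above all 4 WT mice. The 2 rows left out of the totals, Lars2 and ENSMUST00000182010, held 69.2% ± 1.35 of the counts of the NoSelect libraries (n = 8) and 0.107% of those of the PolyA libraries.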

How the results depend on the processing

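Of 5217 recomputed values, 4999 kept their direction and their side of the threshold or moved by less than the spread, and 30 changed sign. The largest shift came from scaling: with total counts in place of TMM, 4322 rows were higher and 1844 lower, and among protein-coding rows 3674 and 992. The share of calls that were higher thereby went from 33.2% to 70.1%. The number of higher rows was 2286 with no filter on low counts, 924 with at least 10 counts required in every library and 896 in a fit of protein-coding rows alone. Leaving out 1 mouse at a time gave 1358 to 1538 higher and 2833 to 2930 lower rows, 981 to 1137 and 1819 to 1906 among protein-coding rows, and 23 of 23 classes past the threshold each time. Without the pairing by mouse (no replicate block) 1397 rows were higher and 2866 lower, the immunoglobulin constant and variable shares no longer passed, and Slc7a11 and Iglc2 were not called.

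For the preparation-by-genotype term the number of rows past the threshold was 9 with DESeq2, 6 with no filter, 0 with no block for the mouse (517 rows at an unadjusted p under 0.05) and 0 to 3 when 1 mouse was left out: 0 without KO mouse 3, KO mouse 5, WT mouse 3, WT mouse 4 or WT mouse 5, and 3 without KO mouse 6 or WT mouse 6.

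Signs changed under total-count scaling for Snora43 (0.30), mt-Nd4l (0.29), mt-Nd5 (0.17), Neat1 (0.32), Rian (0.35), Snhg5 (0.36), Hist1h1c (0.12), Mrps25 (0.15), Psmd11 (0.21), Cxcl12 (0.19), Zfp36l1 (0.086), Adgre5 (0.30), Arntl (0.29) and Pabpc1 (0.013), none of them called. In KO mice alone mt-Atp8 was at -0.041, Neat1 at 0.0026, Hist2h3c2 at 0.028 and Arntl at 0.067, and in WT mice alone H19 at -0.355, Snhg5 at 0.058 and Sec14l3 at -0.017. H19 was at -0.011 with median-of-ratios factors and between -0.124 and 0.157 with 1 mouse left out, below 0 without KO mouse 4 or KO mouse 6, and Snhg5 between -0.181 and 0.0175, above 0 without KO mouse 6. With the 2 abundant rows kept in the totals, 5 class shares turned from lower to higher in PolyA: bidirectional promoter RNA by 0.00635 percentage points, histones by 0.00173, sense intronic by 1.1e-05, transcribed unprocessed pseudogenes by 0.0180 and unprocessed pseudogenes by 0.0182. The cause was not tested beyond the change of the total itself. Mirg lost its call without WT mouse 5 (-0.93), Rplp0 without KO mouse 3, 4 or 5 (0.989 to 0.997) and Gm7536 without KO mouse 3. With median-of-ratios factors, and with DESeq2, Rplp0, Mrpl24, Snrpb, H2-K1 and Gm7536 were just short of 2-fold. Depth limits the rows that never exceeded 3 counts in PolyA, for which only a bound is known.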

Other observations

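Several smaller classes went almost wholly 1 way. Of 44 sense intronic rows, which lie within introns of other genes, 38 were lower in PolyA and 0 higher, with a median of -3.46 when rows at or under 3 counts were set at their bounds. All 6 cytosolic rRNA rows tested were lower. Of 44 unprocessed pseudogene rows 28 were lower and 3 higher. Of 24 miscellaneous RNA rows 23 were lower and the exception, Gm27477, was at 0.84. Of the 1009 rows not matched to a gene name, 239 were higher and 349 lower.

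Of 23 ribosomal protein pseudogenes named with "-ps", 10 were higher and 6 lower in PolyA, and their median was 0.86. In 42 of 10732 rows of either preparation the level differed over 8-fold between mice within that preparation.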
